A study of Mus musculus with 6 samples.

Results

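The chemokines and their receptors were described here in mouse heart across 3 groups of arrays. Members were the genes whose annotated symbol begins with Ccl, Cxcl, Ccr or Cxcr and a number, with Cx3c, or with Ackr and a number. They made up 52 of 18193 genes that had a probe set naming them alone. The 52 genes comprised 32 ligands and 20 receptors, of which 16 were conventional and 4 atypical. They were represented by 84 of 45037 probe sets, and each gene was followed through its brightest probe set over the 6 arrays. A probe set is a group of short probes on the array that together report 1 transcript.

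Chemokines are small secreted proteins that guide the migration of leukocytes along concentration gradients. The CC, CXC and CX3C families are named after the spacing of their leading cysteines, and several ligands share each receptor. Conventional receptors signal through inhibitory G proteins, whereas atypical receptors bind chemokines without that coupling and remove or transport them. In the heart, chemokines come from macrophages, endothelial cells and fibroblasts, and ligands of Ccr2 are known for drawing in blood monocytes.

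Total RNA from heart was labelled with biotin and hybridised to 1-colour Affymetrix arrays, 2 per group. The mice were 8 months old, on the B6 strain background, and ate chow with 7% fat and 0.15% cholesterol. The treated group lacked apolipoprotein E, a carrier of lipids in plasma, and was given 30 mg/kg/day of rosiglitazone over 2 months, starting at 6 months of age. Rosiglitazone is an insulin-sensitizing drug and a ligand of PPAR-gamma, and the labels call these hearts failing. The second group was apoE-deficient and untreated, and the third was B6 wild type. All groups thus shared strain, age and diet, and no wild-type group received the drug. Whether a group's arrays represent separate mice or pools is not stated in the labels, so every p-value below measures only the spread between these arrays.

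The arrays differed in brightness before normalization. The trimmed mean of the deposited signal was 341 and 263 in the treated group, 126 and 130 in the untreated apoE-deficient group, and 175 and 149 in B6. Quantile normalization, which gives every array the same distribution of signals, removed that difference. The targeted gene, Apoe, had normalized signals of 62.2 and 65.2 in the treated arrays, 26.6 and 67.4 in the untreated apoE-deficient arrays, and 3834 and 3698 in B6, as the labels imply. All 12 ventricular cardiomyocyte markers examined were above the filter described next, with a summed signal of 159580 to 176782 across the arrays.

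Of the 52 members, 34 had a mean log2 signal above the 40th percentile of all probe sets and were tested. Differences are on the scale of log2(normalized signal + 11.1), which understates changes of dim genes. They are given with the standard error of 1 limma fit over all 6 arrays, and a member is called at an adjusted p under 0.05 over all 27022 probe sets tested. Of the 34 tested members, 15 were called in at least 1 of the 3 comparisons and 19 in none. The 3 comparisons share arrays and are not independent of each other.

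The members called between rosiglitazone-treated and untreated apoE-deficient hearts were mostly ligands. Higher under treatment were Cxcl17, Ccl8, Ccl5, Ccl24, Cxcl9, Cxcl13, Cxcl12 and Ccl6, and the atypical receptor Ackr3. Lower under treatment were Cxcl1, Ccl2 and Cxcl14, all ligands. In all 12 of 34 tested members were called, 9 higher and 3 lower, or 35.3%, beside 23.7% of all 13236 genes tested (11.4% higher and 12.3% lower). Among ligands 11 of 21 were called, and among receptors 1 of 13. The receptor called, Ackr3, had a mean log2 signal of 10.6 and a standard error of 0.05. The next brightest tested receptor, Ackr2, had 6.85 and 0.21. Most receptors were thus measured with less precision than the bright ligands. The median difference of the tested members was 0.10, beside -0.03 for all genes. The groups did not overlap for 12 members that were higher and 8 that were lower, beside 29.0% and 34.5% of all genes. The count fell to 5 without treated replicate 1, to 6 without treated replicate 2 and to 7 without untreated apoE-deficient replicate 1.

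Untreated apoE-deficient hearts differed from B6 hearts in 7 members. Ccl8, Cxcl1, Ccl9, Ccl6 and the receptor Cxcr3 were higher in the apoE-deficient group, and Cxcl17 and Ccl24 were lower. The 7 members were 20.6% of those tested, beside 8.51% of all genes (3.85% higher and 4.66% lower), and the median difference was 0.13 beside 0.0006. The groups did not overlap for 12 members that were higher and 7 that were lower, beside 26.2% and 26.6% of all genes. Fewer members were called with any 1 array left out, although all 7 kept their direction. Calls were also lost without a treated array, which enters this comparison only through the normalization and the shared estimate of spread. A lost call therefore need not mean that 1 array carried the difference.

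Treated hearts differed from B6 hearts in 7 members, all of them ligands and all higher. They were Ccl8, Cxcl13, Cxcl9, Ccl6, Cx3cl1, Cxcl12 and Ccl9. This was again 20.6% of the tested members, which lies near the 18.7% of all genes in that comparison. Among all genes 8.78% were higher and 9.87% lower. The median difference was 0.22 beside -0.03 for all genes, and groups did not overlap for 19 members that were higher and 5 that were lower, beside 27.5% and 33.9% of all genes. No receptor of 13 was called by limma, and 3 had an unadjusted p under 0.05. The count was 4 without treated replicate 1, without treated replicate 2 or without B6 replicate 1.

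**Figure D1:**
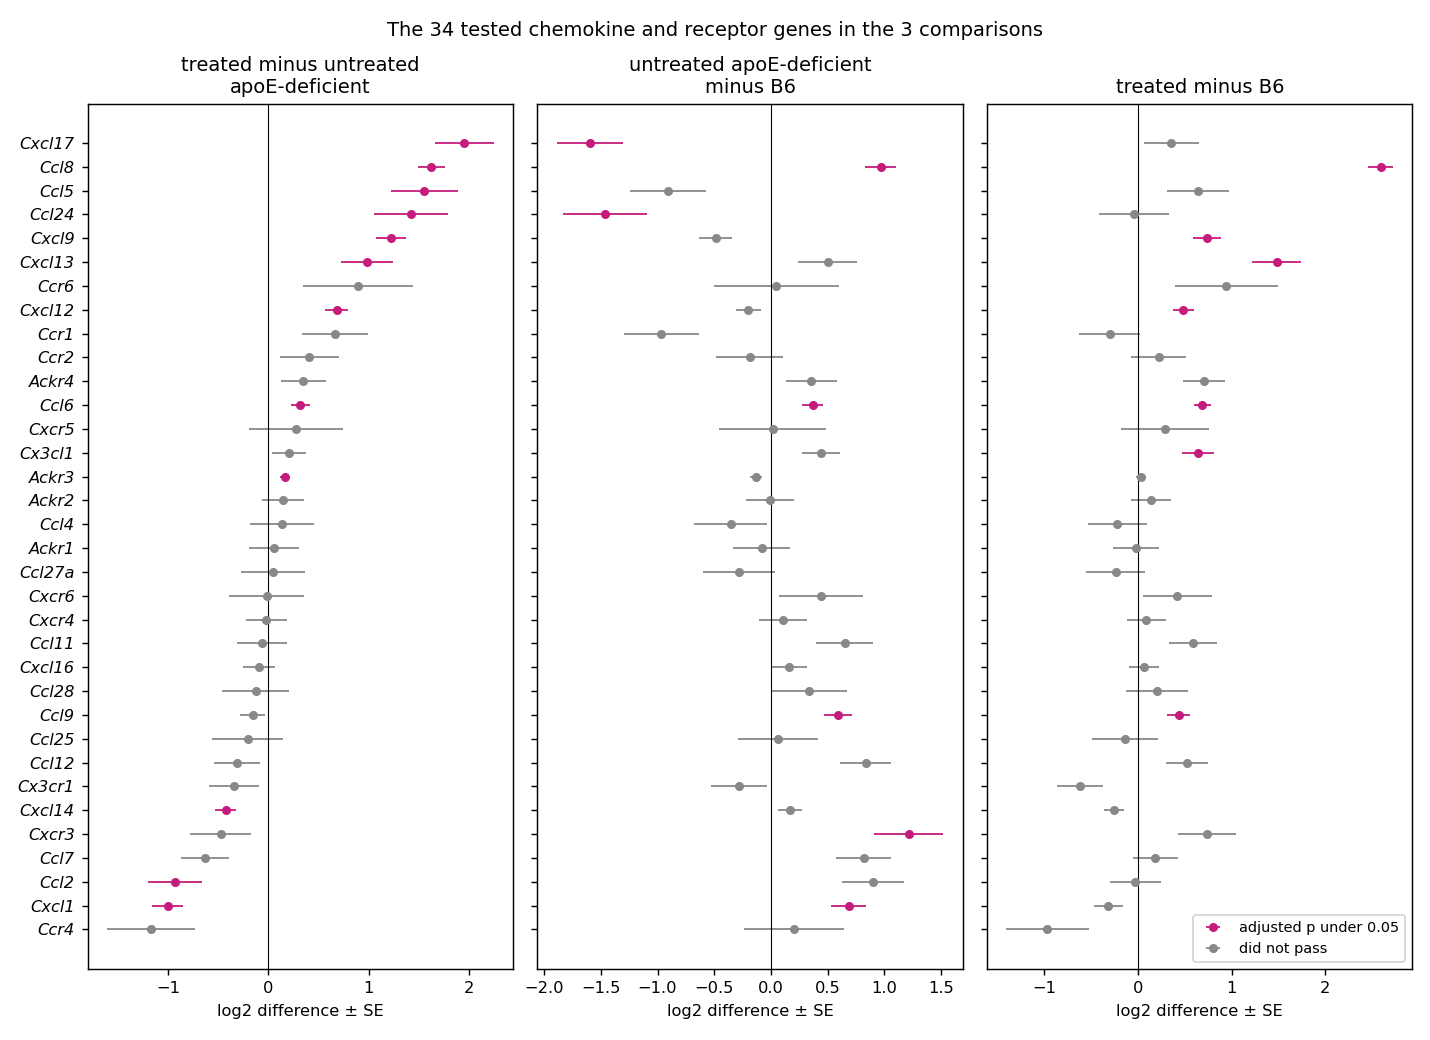
Log2 differences with standard errors of the 34 tested members in the 3 comparisons, 1 panel each, in the order of the difference under treatment. Magenta points have an adjusted p under 0.05 (12, 7 and 7 members) and grey points do not, and Ccl8 is magenta in all 3 panels.

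Ccl8 is a ligand that attracts monocytes and lymphocytes, in the mouse chiefly through Ccr8. It was the member with the largest called rise in treated against B6 hearts. Its normalized signal was 584 and 596 in the treated arrays, 166 and 204 in the untreated apoE-deficient arrays, and 83.7 and 93.9 in B6. The 3 groups were fully separated, with B6 lowest and treated highest. Ccl8 rose by 1.63 ± 0.13 under treatment (adjusted p = 7.17e-05), was 0.97 ± 0.13 higher in untreated apoE-deficient than in B6 hearts (adjusted p = 0.00442), and was 2.59 ± 0.13 higher in treated than in B6 hearts (adjusted p = 5.24e-06). It kept its call in each of these comparisons whichever array was left out. In whole heart RNA, a change in the number of cells of a type and a change in RNA per cell cannot be told apart.

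Ccl2, Ccl7 and Ccl12, which were grouped with Ccl8 as monocyte attractants, did not follow it under treatment. Ccl2, the best known monocyte attractant, had signals of 50.1 and 61.6 in treated, 138 and 97.2 in untreated apoE-deficient, and 44.9 and 71.7 in B6 hearts. Only the untreated apoE-deficient arrays were high, and treated and B6 arrays overlapped. Ccl2 fell by 0.93 ± 0.27 under treatment (adjusted p = 0.0419), whereas its difference between untreated apoE-deficient and B6 hearts, 0.90 ± 0.27, was not called (adjusted p = 0.086). The fall was no longer called without treated replicate 1 (-0.79), without treated replicate 2 (-1.06) or without untreated apoE-deficient replicate 1 (-0.71), and it was 0.26 when the arrays were not scaled, where the median of all probe sets was 1.13. It was not called either with arrays centred on their medians (-0.64), with trimmed means (-0.81) or with spike-ins (-0.66).

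Ccl7, which binds Ccr1, Ccr2 and Ccr3, had signals of 61.6 and 49.7 in treated, 98 and 86.0 in untreated apoE-deficient, and 41.7 and 53.5 in B6 arrays. Ccl12, a mouse ligand of Ccr2, had signals of 128 and 114, 146 and 160, and 61.9 and 104 in the same order. Both were highest in the untreated apoE-deficient arrays with no overlap with B6. Neither was called, with differences from B6 of 0.82 ± 0.24 for Ccl7 (adjusted p = 0.08) and 0.84 ± 0.23 for Ccl12 (adjusted p = 0.0603). Ccl2, Ccl7, Ccl12 and Ccl8 were thus higher in every untreated apoE-deficient array than in every B6 array, and 1 of the 4 was called. With spike-in scaling the other three passed as well, Ccl2 at 0.96 (adjusted p = 0.0488), Ccl7 at 0.87 (adjusted p = 0.0475) and Ccl12 at 0.90 (adjusted p = 0.0307). Ccl12 also passed with a filter at the 60th percentile (adjusted p = 0.0464), and its difference was 1.16 without B6 replicate 2. Ccl7, which has 1 probe set, passed at an unchanged 0.82 (adjusted p = 0.0499) in the fit that averaged other genes' probe sets. With arrays centred on their medians or scaled to trimmed means, none of Ccl2, Ccl7 and Ccl12 passed against B6. Ccr2, the receptor of Ccl2, Ccl7 and Ccl12, had signals of 63.7 and 60.1 in treated, 31.8 and 59.1 in untreated apoE-deficient, and 50.0 and 52.8 in B6 arrays, and was called in no comparison.

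Macrophage markers summed higher in both apoE-deficient groups than in B6, and were called in both directions under treatment. Their summed signal was 15196 and 15127 in treated, 14838 and 14904 in untreated apoE-deficient, and 11141 and 11273 in B6 arrays. Of 17 tested markers, 4 were higher and 2 lower under treatment, 6 were higher and 1 lower in untreated apoE-deficient than in B6 hearts, and 9 were higher in treated than in B6 hearts. Under treatment Gpnmb was among the higher (2.26) and Adgre1 among the lower (-0.61). Of all genes tested, 23.7%, 8.51% and 18.7% were called in either direction in these comparisons. The part of the macrophage markers in the differences of the Ccl genes was not tested.

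Ccl6 and Ccl9, both ligands of Ccr1, are made by myeloid cells. Ccl6 had signals of 790 and 757 in treated, 563 and 675 in untreated apoE-deficient, and 484 and 467 in B6 arrays. The 3 groups did not overlap. Its differences were small: 0.32 ± 0.09 under treatment (adjusted p = 0.0418), 0.37 ± 0.09 for untreated apoE-deficient against B6 (adjusted p = 0.0496) and 0.69 ± 0.09 for treated against B6 (adjusted p = 0.00131). A second probe set gave 0.49 (adjusted p = 0.0278), 0.22 (adjusted p = 0.361, not called) and 0.71 (adjusted p = 0.0063). Through the brighter one the last was called whichever array was left out. The first was lost without treated replicate 1 (0.29), treated replicate 2 (0.35), either B6 array (0.32) or untreated apoE-deficient replicate 1 (0.19). The second was lost without either treated array (0.37), untreated apoE-deficient replicate 2 (0.24), B6 replicate 1 (0.39) or B6 replicate 2 (0.34).

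Ccl9 had signals of 555 and 510 in treated, 547 and 645 in untreated apoE-deficient, and 347 and 440 in B6 arrays. Both apoE-deficient groups lay above B6 and overlapped each other. Ccl9 was higher than in B6 by 0.59 ± 0.12 in untreated hearts (adjusted p = 0.0257) and by 0.44 ± 0.12 in treated hearts (adjusted p = 0.047). The first was lost without untreated apoE-deficient replicate 1 (0.71), its replicate 2 (0.47) or B6 replicate 1 (0.42). The second was lost without treated replicate 1 (0.38), treated replicate 2 (0.50), untreated apoE-deficient replicate 2 (0.43) or B6 replicate 1 (0.27). A further probe set of Ccl9 was called higher in both comparisons, at 0.93 (adjusted p = 0.006) and 0.75 (adjusted p = 0.007).

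Ccl5, an attractant of T cells and monocytes, was dim. Its signals were 69.4 and 58.3 in treated, 19.8 and 9.9 in untreated apoE-deficient, and 37.6 and 35.9 in B6 arrays. The untreated apoE-deficient arrays were lowest and the treated arrays highest, without overlap. The untreated mean log2 of 4.67 was under the filter's 4.99, so Ccl5 was tested only through the other groups. Ccl5 rose by 1.55 ± 0.33 under treatment (adjusted p = 0.0111), and its difference of -0.91 ± 0.33 between untreated apoE-deficient and B6 hearts was not called (adjusted p = 0.147). The rise was lost without treated replicate 1 (1.40) or treated replicate 2 (1.66). Ccl4, an attractant of macrophages and T cells, had signals of 51.5 and 44.6, 60.2 and 29.3, and 57.0 and 58.4 in the same order of groups, and was called in no comparison. The receptor Ccr1 had signals of 33.6 and 42.8 in treated, 18.0 and 21.9 in untreated apoE-deficient, and 40.8 and 59.6 in B6 arrays, and was not called either.

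Ccl11 and Ccl24 were grouped as ligands of Ccr3, an eosinophil receptor that Ccl7 also binds. Ccl24 had signals of 35.5 and 40.3 in treated, 10.3 and 4.5 in untreated apoE-deficient, and 38.8 and 39.7 in B6 arrays. Treated and B6 arrays overlapped, and both untreated apoE-deficient arrays were below them and under the 11.1 added before the log. The untreated mean log2 of 4.19 was under the filter's 4.99, so Ccl24 was tested only through the other groups. Ccl24 rose by 1.42 ± 0.37 under treatment (adjusted p = 0.0265) and was lower by -1.46 ± 0.37 in untreated apoE-deficient than in B6 hearts (adjusted p = 0.0495). The rise was lost without treated replicate 1 (1.47), treated replicate 2 (1.36) or untreated apoE-deficient replicate 2 (1.2). The lower level was lost whichever of the 6 arrays was left out, at values from -1.69 to -1.24. Ccl11 had signals of 80.3 and 62.2, 74.3 and 74.0, and 36.4 and 51.3 in the order treated, untreated and B6, and was called in no comparison. Ccr3 itself was too dim to be tested, and the eosinophil markers Epx, Prg2 and Siglecf were below the filter as well.

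Cxcl1 attracts neutrophils through Cxcr2. Its signals were 148 and 196 in treated, 373 and 332 in untreated apoE-deficient, and 197 and 233 in B6 arrays. The untreated apoE-deficient arrays were highest, and every treated array was below every B6 array. Cxcl1 fell by 1.0 ± 0.16 under treatment (adjusted p = 0.00211), and was 0.28 without scaling, where the median of all probe sets was 1.13. It was 0.69 ± 0.16 higher in untreated apoE-deficient than in B6 hearts (adjusted p = 0.0333). The fall was called whichever array was left out, while the difference from B6 was lost without untreated apoE-deficient replicate 1 (0.60), its replicate 2 (0.76), B6 replicate 1 (0.57) or B6 replicate 2 (0.80). Its 2 dimmer probe sets disagreed with it: neither was called under treatment (0.24 and -0.05), and 1 was lower in untreated apoE-deficient than in B6 hearts (-0.92, adjusted p = 0.024) and also lower in treated than in B6 hearts (-0.97, adjusted p = 0.00896). With a gene's probe sets averaged, Cxcl1 gave -0.27 under treatment, not called, and -0.23 against B6. Of 7 tested neutrophil markers, 1 was called under treatment: Ltf, lactoferrin, at 277 and 301 in treated and 15.6 and 40.3 in untreated apoE-deficient arrays. In untreated apoE-deficient against B6 hearts 1 was called, S100a8, which was lower, and the part of neutrophils in the Cxcl1 differences was not tested.

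Cxcl9 is an interferon-gamma-induced ligand of Cxcr3, the receptor of activated T and natural killer cells. Its signals were 215 and 251 in treated, 95.4 and 90.8 in untreated apoE-deficient, and 139 and 131 in B6 arrays. The 3 groups were separated, with the untreated apoE-deficient arrays lowest. Cxcl9 rose by 1.22 ± 0.15 under treatment (adjusted p = 6.04e-04) and was 0.73 ± 0.15 higher in treated than in B6 hearts (adjusted p = 0.0105). Its difference of -0.49 ± 0.15 between untreated apoE-deficient and B6 hearts was not called (adjusted p = 0.0892). The rise was called whichever array was left out, and the difference from B6 was lost without treated replicate 2 (0.63) or B6 replicate 2 (0.69). The dimmer probe set of Cxcl9 gave 0.80 (adjusted p = 0.121) and 0.55 (adjusted p = 0.322), neither called.

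Cxcr3 had signals of 46.3 and 68.2 in treated, 98 and 69.6 in untreated apoE-deficient, and 36.8 and 23.2 in B6 arrays. By group mean the receptor was thus highest in the group in which its ligand Cxcl9 was lowest. Cxcr3 differed by -0.48 ± 0.31 between treated and untreated apoE-deficient hearts, which was not called (adjusted p = 0.326). It was 1.21 ± 0.31 higher in untreated apoE-deficient than in B6 hearts (adjusted p = 0.0483), a call that was lost whichever of the 6 arrays was left out, at values from 0.98 to 1.46. In that comparison limma called 0 of 5 tested T cell markers, 2 of which had an unadjusted p under 0.05. Cd3d, Cd3e and Cd4 were below the filter, and the list summed to 681 and 770 in treated, 734 and 812 in untreated apoE-deficient, and 807 and 980 in B6 arrays. It also called 0 of 3 tested natural killer cell markers, 2 of them at an unadjusted p under 0.05. The part of either cell type in the Cxcr3 difference was not tested.

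**Figure D2:**
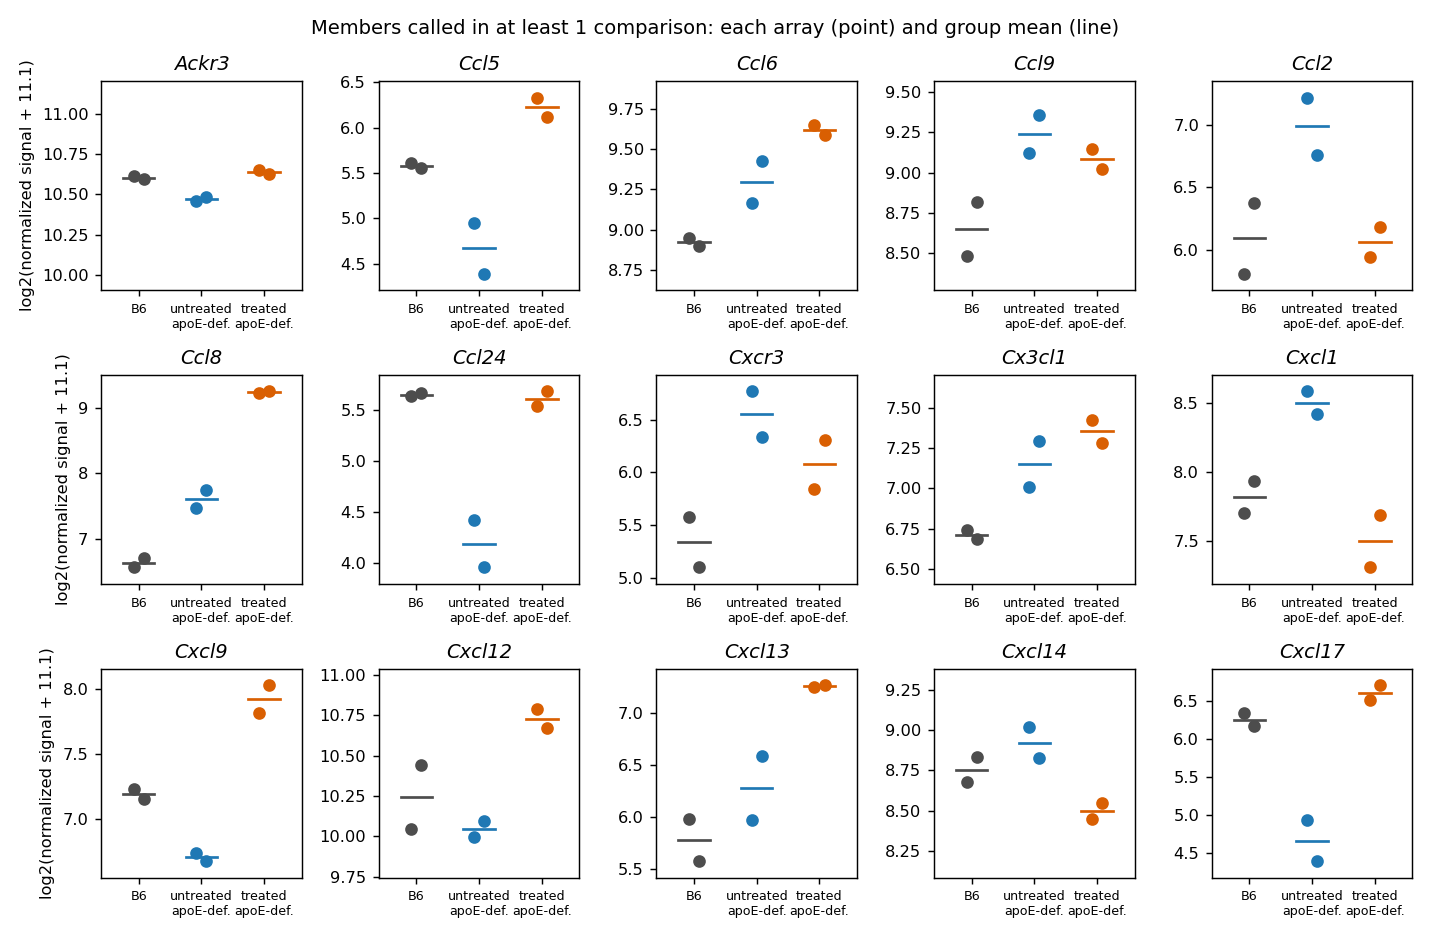
Log2(normalized signal + 11.1) of the 15 called members, with 1 panel per gene, points for the 6 arrays and lines for the group means. Each panel has its own vertical range. Ccl8, Ccl6 and Cx3cl1 have their lowest mean in B6 and their highest in treated hearts, while Ccl2, Cxcl1 and Cxcr3 are highest in untreated apoE-deficient hearts.

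Cxcl17, a chemokine of mucosal surfaces such as airway lining, gave the largest called rise under treatment among the members. Its signals were 80.4 and 93.7 in treated, 19.5 and 9.9 in untreated apoE-deficient, and 70.2 and 60.8 in B6 arrays. Treated and B6 arrays were higher, and both untreated apoE-deficient arrays were near the 11.1 added before the log. The untreated mean log2 of 4.66 was under the filter's 4.99, so Cxcl17 was tested only through the other groups. Between treated and B6 hearts the difference of 0.36 ± 0.29 was not called (adjusted p = 0.511). Cxcl17 rose by 1.95 ± 0.29 under treatment (adjusted p = 0.00184) and was lower by -1.59 ± 0.29 in untreated apoE-deficient than in B6 hearts (adjusted p = 0.0155). The first was called whichever array was left out, and the second was lost without B6 replicate 1 (-1.51) or B6 replicate 2 (-1.69).

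Airway and lung markers were also higher under treatment. Their summed signal was 16538 and 17465 in treated, 273 and 305 in untreated apoE-deficient, and 226 and 295 in B6 arrays. Of 11 tested, 7 were higher in treated than in either other group and limma called 0 between untreated apoE-deficient and B6 hearts, with 0 at an unadjusted p under 0.05. The alveolar genes Ager, Sftpa1 and Sftpd were below the filter. In the B6 arrays Cxcl17 was at 70.2 and 60.8 and the airway sum at 226 and 295. The part of airway RNA in the rise of Cxcl17 under treatment was not tested.

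Cxcl13, which attracts B cells through Cxcr5, had signals of 142 and 143 in treated, 51.6 and 84.8 in untreated apoE-deficient, and 52.1 and 36.6 in B6 arrays. Only the treated arrays stood apart. Cxcl13 was higher in treated than in untreated apoE-deficient hearts by 0.98 ± 0.26 (adjusted p = 0.029) and than in B6 hearts by 1.48 ± 0.26 (adjusted p = 0.00541). The first was lost without either treated array (0.98) or without untreated apoE-deficient replicate 1 (0.68), and the second was called whichever array was left out. A second probe set of Cxcl13 gave 0.48 (adjusted p = 0.379) and 1.24 (adjusted p = 0.039) in these comparisons. The B and plasma cell markers summed to 3438 and 3841 in treated, 2527 and 2544 in untreated apoE-deficient, and 2733 and 2791 in B6 arrays. Of 9 tested, 3 were higher and 1 lower under treatment, Blk and Cr2 were below the filter, and their part in the Cxcl13 difference was not tested. Cxcr5 was called in no comparison.

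Cxcl12, the ligand of Cxcr4 made by stromal and endothelial cells, was bright. Its signals were 1756 and 1617 in treated, 1009 and 1082 in untreated apoE-deficient, and 1043 and 1381 in B6 arrays. The treated arrays were highest, and the other groups overlapped. Cxcl12 rose by 0.68 ± 0.11 under treatment (adjusted p = 0.00314) and was 0.49 ± 0.11 higher in treated than in B6 hearts (adjusted p = 0.0203). The rise was called whichever array was left out, and the difference from B6 was lost without treated replicate 1 (0.44) or B6 replicate 1 (0.28). With its probe sets averaged, the rise was 0.59 and not called. A second probe set was called in the same directions, at 0.49 (adjusted p = 0.009) and 0.53 (adjusted p = 0.008). Its receptor Cxcr4 had signals of 80.5 and 95.4 in treated, 101 and 77.7 in untreated apoE-deficient, and 84.3 and 79.3 in B6 arrays, and was called in no comparison.

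Ackr3 is the atypical receptor that binds and removes Cxcl12. Its signals were 1596 and 1568 in treated, 1395 and 1420 in untreated apoE-deficient, and 1554 and 1535 in B6 arrays. The untreated apoE-deficient arrays were lowest by a narrow margin. It was 0.17 ± 0.05 higher under treatment (adjusted p = 0.0467), and this call was lost whichever of the 6 arrays was left out, at values from 0.15 to 0.18. Fibroblast markers summed to 44904 and 43529 in treated, 35948 and 36074 in untreated apoE-deficient, and 39531 and 39687 in B6 arrays, with 9 of 11 higher under treatment. Blood endothelial markers summed to 9064 and 9256, 11673 and 11518, and 11344 and 11543 in the same order. Their sum was carried by Aqp1, a water channel, at 616 and 580 in treated against 4874 and 4859 in untreated apoE-deficient arrays. Of 11 endothelial markers 5 were higher and 2 lower under treatment, with Cldn5, a junction protein, higher by 1.91 ± 0.12. The part of either cell type in the differences of Cxcl12 and Ackr3 was not tested.

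Cxcl14 had signals of 338 and 363 in treated, 508 and 443 in untreated apoE-deficient, and 398 and 444 in B6 arrays. The treated arrays were lowest without overlap. Cxcl14 fell by 0.42 ± 0.10 under treatment (adjusted p = 0.0195), and was 0.85 without scaling, where all probe sets had a median of 1.13. The call was lost without treated replicate 1 (-0.38) or untreated apoE-deficient replicate 1 (-0.33), and with arrays centred on their medians (-0.05) or spike-in scaling (-0.17). Its dimmer probe set was called as well, at -0.44 (adjusted p = 0.049), and unlike the brighter one it was called higher in untreated apoE-deficient than in B6 hearts, at 0.65 (adjusted p = 0.024). Cxcl16, the membrane-bound ligand of Cxcr6, had signals of 225 and 254 in treated, 289 and 228 in untreated apoE-deficient, and 258 and 202 in B6 arrays, and was not called through that probe set. A dimmer one was 0.57 higher in treated than in B6 hearts (adjusted p = 0.039).

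Cx3cl1, also called fractalkine, is a membrane-bound ligand of endothelial cells and neurons. Its signals were 161 and 145 in treated, 118 and 146 in untreated apoE-deficient, and 96.0 and 91.8 in B6 arrays. All apoE-deficient arrays lay above B6, and treated and untreated arrays overlapped. Cx3cl1 was 0.64 ± 0.17 higher in treated than in B6 hearts (adjusted p = 0.0326). That call was lost without treated replicate 1 (0.57), treated replicate 2 (0.71), B6 replicate 1 (0.67) or B6 replicate 2 (0.61), and a second tested probe set gave -0.20, not called. Cx3cr1, its receptor on resident macrophages, had signals of 45.8 and 65.3, 70.3 and 74.5, and 76.9 and 106 in the order treated, untreated and B6, and was called in no comparison.

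The remaining receptors gave no calls. Ccr4, a receptor of T helper and regulatory T cells, had signals of 3.5 and 18.4 in treated, 36.1 and 35.2 in untreated apoE-deficient, and 32.4 and 26.8 in B6 arrays. Treated arrays lay below both other groups, with a difference of -1.17 ± 0.44 under treatment (adjusted p = 0.0982). Ackr4, which removes Ccl19 and Ccl21, had signals of 90.0 and 104, 83.2 and 65.1, and 61 and 49.7 in the order treated, untreated and B6, and was 0.70 ± 0.23 higher in treated than in B6 hearts (adjusted p = 0.0709), also not called. The dimmer tested probe sets of Ackr4 gave 0.30 and 0.26 in that comparison. In untreated apoE-deficient against B6 hearts they gave -0.61 and -0.21, where the brightest gave 0.36, and none was called. Ackr1, a chemokine transporter of red cells and venules, stayed between 45.7 and 53.7 in all 6 arrays. Ackr2, Ccr6 and Cxcr6, and the ligands Ccl25, Ccl27a and Ccl28, were called in no comparison.

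The 18 members below the filter were Ccl1, Ccl3, Ccl17, Ccl20, Ccl22, Cxcl2, Cxcl3, Cxcl5, Cxcl10, Cxcl11, Cxcl15, Ccr1l1, Ccr3, Ccr7, Ccr8, Ccr9, Ccr10 and Cxcr2. Their mean normalized signals ran from 2.81 to 20.7, and such a gene is too dim to be tested rather than shown to be absent. Cxcl10, like Cxcl9 a ligand of Cxcr3, had signals of 53.1 and 20.9 in treated, 8.4 and 7.0 in untreated apoE-deficient, and 11.8 and 5.0 in B6 arrays. Cxcl5, a neutrophil attractant like Cxcl1, had signals of 24.4 and 23.4, 5.6 and 11.3, and 1.8 and 5.4 in the same order. For both the treated arrays were the highest. With no filter applied, neither was called under treatment, at 1.27 ± 0.45 for Cxcl10 (adjusted p = 0.124) and 0.86 ± 0.35 for Cxcl5 (adjusted p = 0.189).

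**Figure D3:**
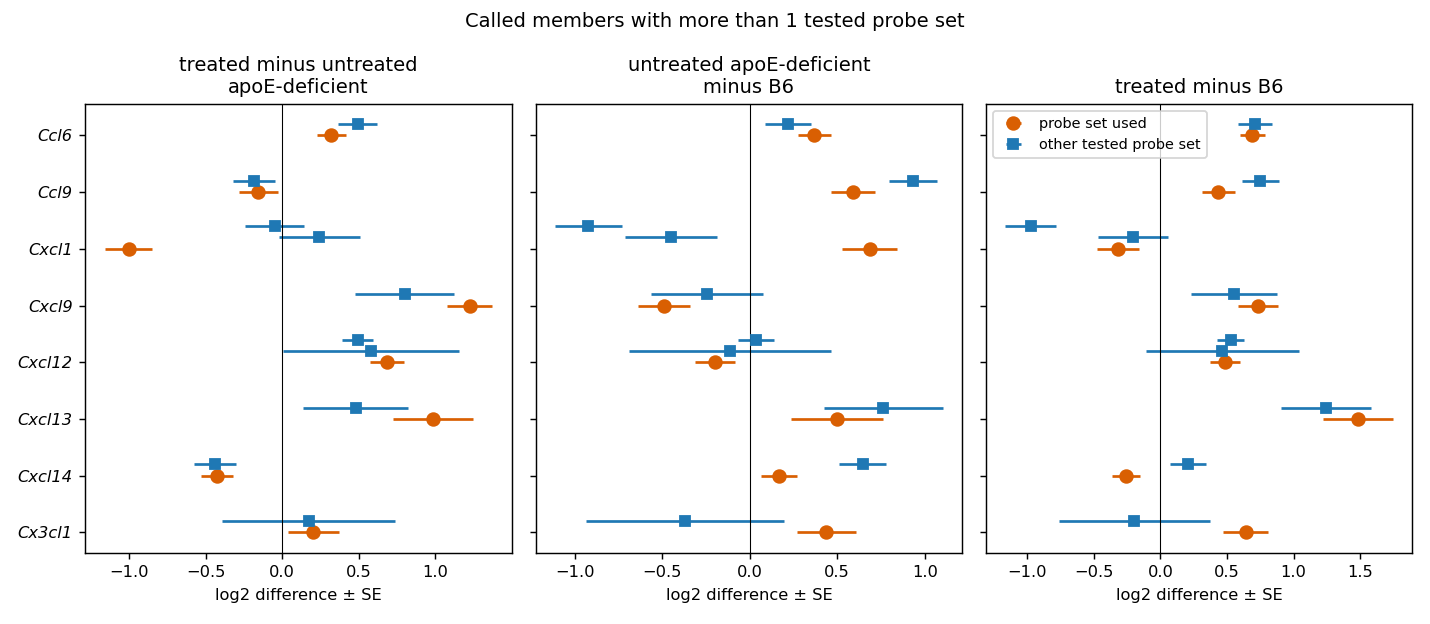
Log2 differences with standard errors of the probe set used (circles) and of further tested probe sets (squares) of the same called member, 1 panel per comparison. The probe sets of Ccl9 and Cxcl12 fall on the same side of 0 in the comparisons called, and those of Cxcl1 do not.

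Several members lie next to each other in the mouse genome. In the RefSeq gene table of GRCm38.p6, Ccl2, Ccl7, Ccl11, Ccl12, Ccl8 and Ccl1 follow one another on chromosome 11, and Ccl5, Ccl9, Ccl6, Ccl3 and Ccl4 form another run there. Within the first run Ccl8 rose and Ccl2 fell under treatment, so these neighbours moved in opposite directions. Cxcl3, Cxcl15, Cxcl1 and Cxcl2 form a run on chromosome 5, of which Cxcl1 alone was bright enough to be tested.

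The start regions of the 6 members with the largest called differences among those with an entry are shown so that the regulatory letters next to the measured genes can be read. They are the 250 bases before the annotated start from RefSeq (GRCm38.p6), 5′ to 3′ on the gene's strand. Capitals mark a match to the letters of the TATA box (TATAAA) in Ccl8, Cxcl13 and Cxcl9. In Cxcl1 they mark overlapping matches to the NF-kappaB consensus on both strands. Cxcr3 and Ccl6 held none of the 4 motifs searched and have no capitals. The regions lie at chr11:82114935-82115184 on the plus strand for Ccl8, chr5:95956689-95956938 on the plus strand for Cxcl13, chr5:92328080-92328329 on the minus strand for Cxcl9, chrX:101734148-101734397 on the minus strand for Cxcr3, chr5:90890995-90891244 on the plus strand for Cxcl1, and chr11:83593088-83593337 on the minus strand for Ccl6.
Ccl8: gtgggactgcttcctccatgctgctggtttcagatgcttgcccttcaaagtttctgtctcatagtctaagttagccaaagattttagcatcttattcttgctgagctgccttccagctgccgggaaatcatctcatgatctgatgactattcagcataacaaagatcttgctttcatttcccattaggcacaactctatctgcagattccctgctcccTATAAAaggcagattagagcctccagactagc
Cxcl13: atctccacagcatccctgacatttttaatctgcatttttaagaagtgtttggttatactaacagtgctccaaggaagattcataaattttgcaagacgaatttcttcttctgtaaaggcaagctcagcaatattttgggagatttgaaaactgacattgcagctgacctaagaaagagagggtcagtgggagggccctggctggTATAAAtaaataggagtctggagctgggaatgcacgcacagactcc
Cxcl9: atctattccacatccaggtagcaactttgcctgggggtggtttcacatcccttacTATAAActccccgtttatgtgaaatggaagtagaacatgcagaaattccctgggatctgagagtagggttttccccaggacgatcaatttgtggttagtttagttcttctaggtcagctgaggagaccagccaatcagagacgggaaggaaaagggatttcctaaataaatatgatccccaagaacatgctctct
Cxcr3: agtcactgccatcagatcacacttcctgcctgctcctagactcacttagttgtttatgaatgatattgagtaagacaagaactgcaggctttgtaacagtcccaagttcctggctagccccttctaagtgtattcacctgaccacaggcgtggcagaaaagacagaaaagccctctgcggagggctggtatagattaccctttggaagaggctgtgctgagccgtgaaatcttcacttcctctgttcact
Cxcl1: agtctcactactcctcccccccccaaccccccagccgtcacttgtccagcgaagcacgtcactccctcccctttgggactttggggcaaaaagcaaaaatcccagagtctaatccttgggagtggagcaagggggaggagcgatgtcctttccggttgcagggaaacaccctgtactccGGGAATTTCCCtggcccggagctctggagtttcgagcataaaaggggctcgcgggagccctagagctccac
Ccl6: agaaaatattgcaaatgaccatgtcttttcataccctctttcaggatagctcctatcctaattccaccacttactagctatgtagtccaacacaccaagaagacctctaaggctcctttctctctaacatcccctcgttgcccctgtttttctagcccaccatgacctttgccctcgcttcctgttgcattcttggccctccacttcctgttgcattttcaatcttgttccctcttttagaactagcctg

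The TATAAA match began 32 bases before the start in Ccl8, 46 bases before it in Cxcl13 and 195 bases before it in Cxcl9. An NF-kappaB match in Cxcl1 lay 71 bases before the start. Over the 39 members with a start region in the table, read on both strands, 13 held TATAAA in at least 1 region (33.3%, beside 14.3% of 27025 genes counted the same way over regions of that length) and 11 held the NF-kappaB consensus (28.2%, beside 8.23%). The gamma-activated site TTCNNNGAA was in 4 (10.3%, beside 8.13%) and the interferon-stimulated response element, GAAA with any 2 bases and GAAA again, in 2 (5.13%, beside 3.46%). These matches describe letters and not bound sites. Ccl2, Ccl4, Ccl5, Ccl7, Ccl11, Ccl24, Ccr7, Ccr10, Cxcl5, Cxcl11, Cxcl16, Cxcl17 and Cxcr5 had no entry.

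Genes that act around the chemokines were read from 7 lists of signalling, adhesion and processing genes. Of 113 measured, 95 were tested. Under treatment 12 were higher and 13 lower, or 26.3% beside 23.7% of all genes, with a median of -0.04. In untreated apoE-deficient against B6 hearts 10 were higher and 3 lower, or 13.7% beside 8.51%, with a median of 0.10. In treated against B6 hearts 13 were higher and 6 lower, or 20.0% beside 18.7%, with a median of 0.11. Without treated replicate 1 the first count was 11 and the last 9, and without treated replicate 2 the first was 15. The middle count was 3 without untreated apoE-deficient replicate 1 or without B6 replicate 1, and 6 without replicate 2 of either group.

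Leukocyte adhesion genes were among those called. Vcam1, which holds leukocytes on endothelium, had signals of 587 and 545 in treated, 445 and 386 in untreated apoE-deficient, and 308 and 279 in B6 arrays. The groups were ordered like those of Ccl8. Vcam1 was 0.92 ± 0.10 higher in treated than in B6 hearts (adjusted p = 4.67e-04), whichever array was left out. Itgb2, the common beta chain of leukocyte integrins, had signals of 251 and 237, 289 and 294, and 118 and 158 in the same order, and was 1.03 ± 0.15 higher in untreated apoE-deficient than in B6 hearts (adjusted p = 0.0049), also whichever array was left out. In all, of 22 tested migration effectors, 4 were higher and 2 lower under treatment, 5 higher and 1 lower in untreated apoE-deficient against B6, and 6 higher and 2 lower in treated against B6 hearts.

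Downstream of the receptors, of 19 tested G protein signalling genes 1 was higher and 2 were lower under treatment. The one that rose was Gnai1, an inhibitory G protein subunit, by 1.42 ± 0.12 (adjusted p = 7.77e-05). Of 10 receptor kinases and arrestins 2 were higher and 1 was lower under treatment, and 2 were higher in each comparison with B6. Grk5, a receptor kinase, was 0.71 ± 0.08 higher in treated than in B6 hearts (adjusted p = 6.12e-04). Both of these calls held whichever array was left out.

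Of 16 tested ligand processing genes 4 were higher and 2 lower under treatment. Adam10, a protease that sheds Cx3cl1 and Cxcl16 from membranes, rose by 1.0 ± 0.10 through its brightest probe set (adjusted p = 1.72e-04), but the mean of its probe sets gave 0.43, which was not called. Adam17, another protease of that kind, fell by 0.36 ± 0.10 under treatment (adjusted p = 0.0334). That call was lost without treated replicate 1 (-0.33), treated replicate 2 (-0.40) or untreated apoE-deficient replicate 2 (-0.25), and the value was -0.00127 with arrays centred on their medians and 0.90 without scaling. Of 9 further family members 1 was higher and 3 were lower under treatment. Rarres2, the precursor of chemerin, rose by 0.51 ± 0.09 (adjusted p = 0.0049), whichever array was left out. Of 13 tested NF-kappaB regulators 2 were lower under treatment. Nfkbia, the inhibitor IkappaB-alpha, fell by 0.36 ± 0.06 (adjusted p = 0.00282), whichever array was left out, and was 0.70 without scaling, where the median of all probe sets was 1.13. Of 18 measured inducing cytokines only 6 were above the filter, and Tnf, Il6 and Ifng were not among them.

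**Figure D4:**
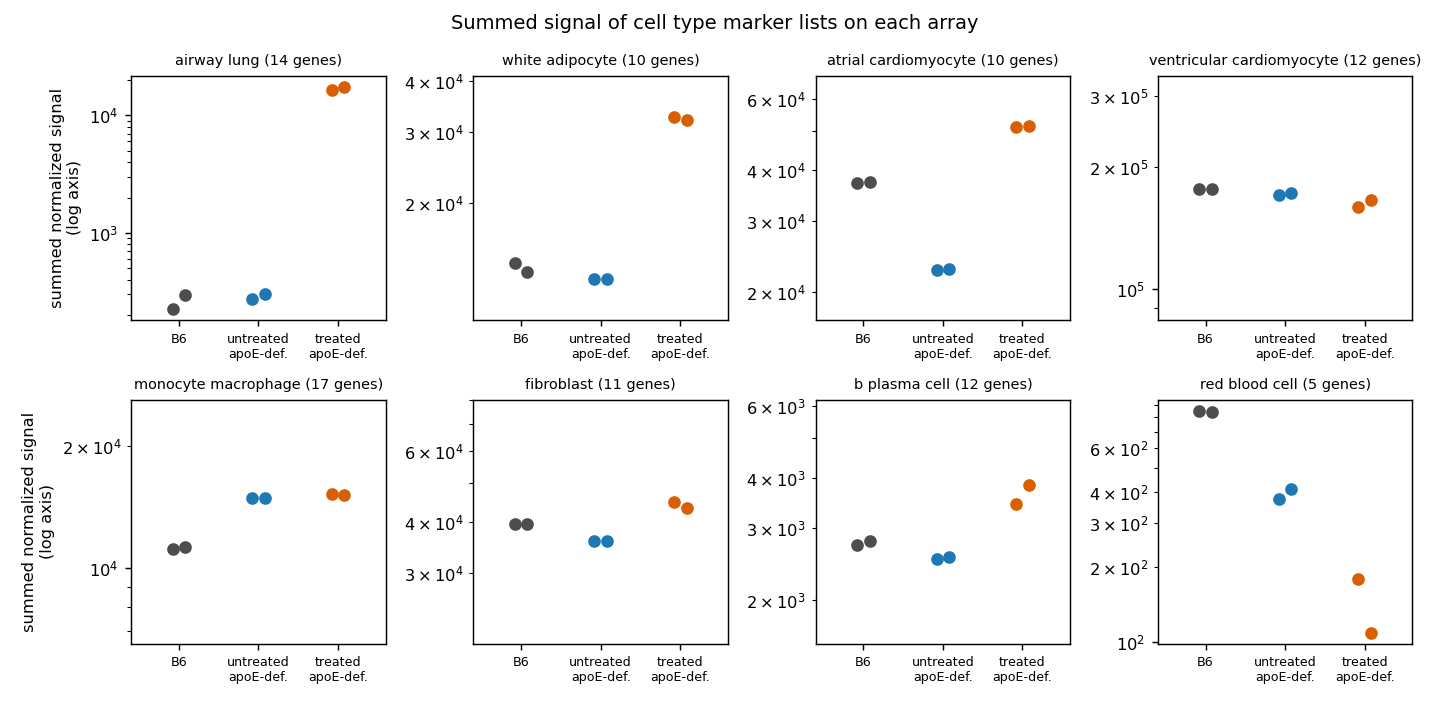
Summed normalized signal per array, on a log axis, of marker lists for cell types that heart RNA could hold, with 1 panel per list. The airway list sits at 16538 and 17465 in treated arrays and at 226 to 305 in the others, while the macrophage list is lower in B6 than in both apoE-deficient groups.

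Other lists moved with the groups too. White adipocyte markers summed to 32653 and 32035 in treated, 12988 and 12973 in untreated apoE-deficient, and 14211 and 13511 in B6 arrays. Atrial cardiomyocyte markers summed to 50976 and 51461, 22677 and 22770, and 37087 and 37409 in the same order. White adipocyte, atrial and fibroblast marker sums thus had the order of groups seen for Ccl5, Cxcl9, Cxcl17 and Ackr3. In that order treated was highest and untreated apoE-deficient lowest, as it was for Cxcl12 by group mean. The part of fat, atrial or airway RNA in the treated arrays' chemokine values was not tested.

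The split of calls also moved with the scaling of the arrays. Under treatment 9 members were higher and 3 lower with quantile normalization, 11 and 2 after centring each array on its median, 8 and 2 after scaling to trimmed means, 9 and 1 with the spike-in controls, and 28 and 0 with no scaling. In untreated apoE-deficient against B6 hearts the split was 5 and 2 with quantile normalization, 2 and 2 with medians centred, 3 and 3 with trimmed means, 8 and 2 with spike-ins, and 0 and 3 with no scaling. These scalings shifted the median of all probe sets under treatment to 0.23, 0.02, 0.18 and 1.13 in that order, from -0.02. No member was called lower in treated than in B6 hearts through its brightest probe set under any of the 5 scalings.

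**Figure D5:**
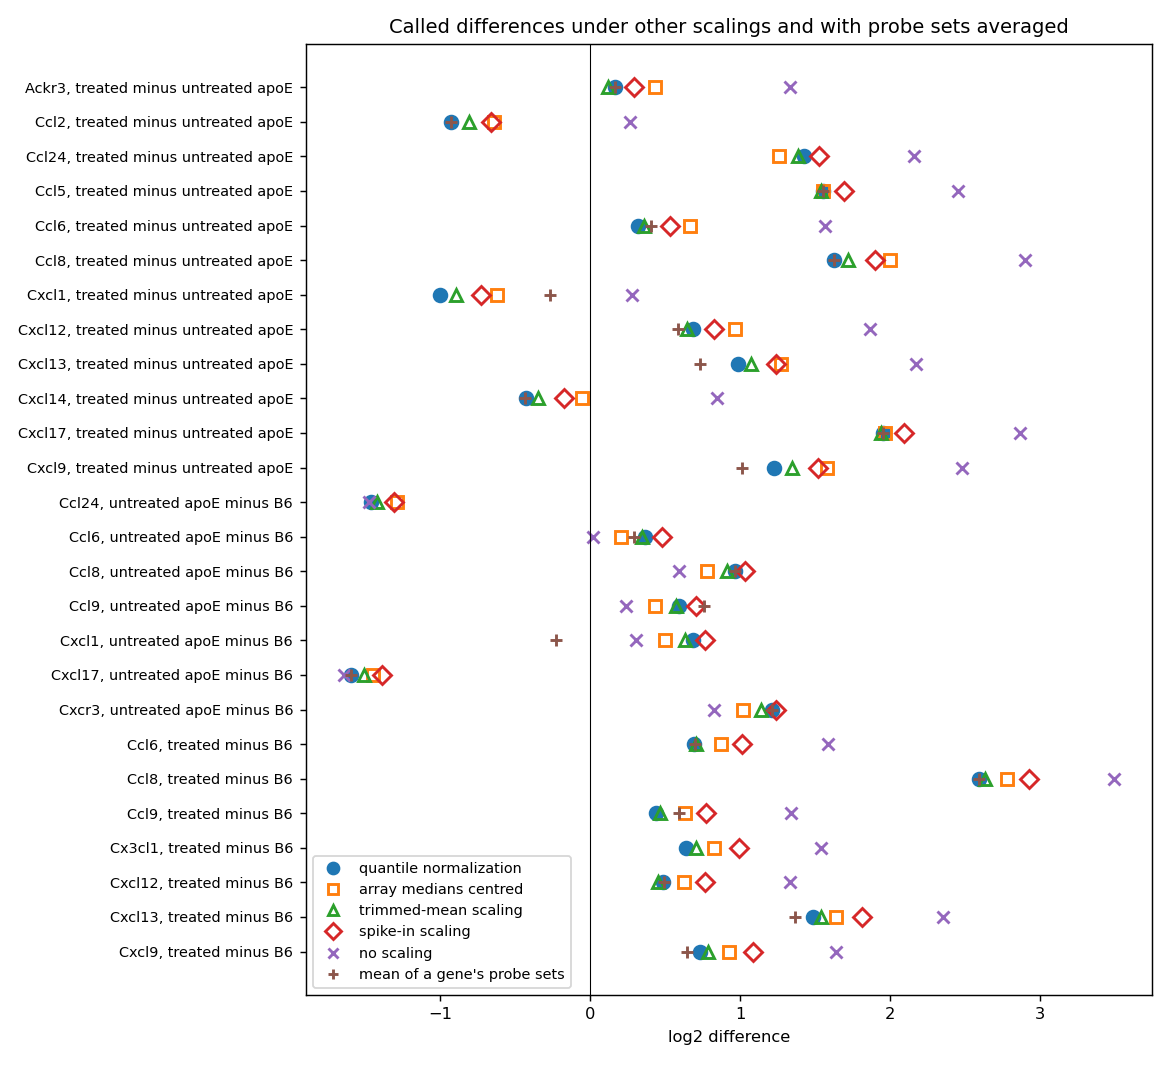
Log2 difference of each called member and comparison, 1 line each, under 5 scalings of the arrays and with a gene's probe sets averaged (marker shapes). Without scaling Ccl2, Cxcl1 and Cxcl14 lie at 0.26, 0.28 and 0.85 under treatment, right of 0 but below the median of 1.13 of all probe sets, whereas Ccl8 stays right of 0 under every setting.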

How the data were processed

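Intensity values of the 6 arrays were taken as the authors deposited them, with GCOS named in the submitters' processing notes and its settings not given in the sources used here. They were quantile-normalized over the 45037 non-control probe sets, 11.1 was added (their 25th percentile) and log2 taken. Probe sets with a mean above the 40th percentile (27022) entered 1 limma fit (version 3.58.1, R 4.3.3) with an intensity trend, 3 residual and 5.97 prior degrees of freedom, and Benjamini-Hochberg adjustment. The steps were tested on simulated data. Symbols came from the platform annotation, updated through gene numbers, and probe sets naming several genes were left out. Named are all called members, the brightest of each role, partners of called members, and up to 3 called genes per other list. Members and lists were chosen with earlier results of these data known. Same-numbered arrays did not deviate together (correlations -0.00631, 0.0329 and 0.0196), so the numbers were not used to pair arrays. This cannot show whether same-numbered arrays were handled together. The number of arrays limits the precision. Alternatives covered scaling, pseudocount, filter, trend, probe sets, the samples fitted, the replicate block and each array left out.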

Additional observations from a re-analysis of the deposited data

How the results depend on the processing

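Without scaling, Ccl2 (0.26), Cxcl1 (0.28) and Cxcl14 (0.85) lay above 0 under treatment, all below the median of 1.13 to which that setting moved all probe sets. With a gene's probe sets averaged, Cxcl1 was -0.23 in untreated apoE-deficient against B6 hearts. Of members, 12 were called under treatment, beside 28 with no scaling, 7 with no filter, 6 with no intensity trend and 5 to 11 with 1 array left out. Against B6, 7 untreated apoE-deficient members were called, beside 4 with medians centred, 3 with no scaling, 4 with a pseudocount of 1, 3 with no filter, 0 with no intensity trend (limma, 15 at an unadjusted p under 0.05), 3 with the arrays of the 2 groups alone and 1 to 4 with 1 array left out. In treated against B6 hearts 7 were called, beside 12 with spike-in scaling, 26 with no scaling, 1 with no intensity trend and 4 to 7 with 1 array left out. With the replicate number as a block, 10, 4 and 7 members were called in the 3 comparisons.

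Of other pathway genes, 25 were called under treatment, beside 41 with medians centred, 85 with no scaling, 6 with no intensity trend, 16 with probe sets averaged and 11 to 25 with 1 array left out. In untreated apoE-deficient against B6 hearts 13 were called, beside 26 with spike-in scaling, 5 with no scaling, 0 with no intensity trend (limma, 27 at an unadjusted p under 0.05), 7 with probe sets averaged and 3 to 11 with 1 array left out. In treated against B6 hearts 19 were called, beside 47 with spike-in scaling, 82 with no scaling, 2 with no intensity trend, 12 with probe sets averaged and 9 to 21 with 1 array left out. Fewer arrays or genes enter some of these fits, and otherwise the cause was not tested. Ccl8 kept its call in treated against B6 hearts under every alternative run. With 2 arrays per group, signals near the pseudocount are the least certain.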
